A study of Mus musculus with 5 samples.

Results

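The cells described here are 225 cells from the femoral marrow of mice that carried RNA for the proteins coating fat droplets, chosen to catch marrow adipocytes and called adipocyte-rule cells below. A cell was counted when it had at least 500 detected genes, at least 1000 unique molecular identifiers (UMIs, counted RNA molecules) and under 25% of its UMIs from mitochondrial (mt-) genes. It also had no UMI of Ptprc (the blood-cell antigen CD45), Pecam1 or Cdh5 (endothelial junction proteins), and at least 3 UMIs summed over Plin1, Cidec and Plin4, with at least 2 of these 3 genes detected. These 225 cells were 0.388% of the 57968 cell barcodes deposited and 0.588% of the 38286 cells that passed the filters without Ptprc, Pecam1 or Cdh5. Because measured values chose them, the levels of Plin1, Cidec and Plin4 and every difference between these cells and other cells are descriptions and carry no test.

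The study sorted tdTomato-positive cells from Lepr-cre; R26R-tdTomato mice, in which a red fluorescent reporter is switched on in cells that express, or descend from cells that expressed, the leptin receptor, and profiled single cells of the femoral shaft on the BD Rhapsody microwell system. All 5 groups carried both alleles, and each group was 1 library, so no comparison between groups has a replicate or a p-value. At 15 weeks of age, control animals had no surgery, naive animals had had their marrow ablated once, at 13 weeks, and exhausted animals had had it ablated at both 9 and 13 weeks. Animals of 18 months had either no surgery (aged) or an ablation 1 week before sampling (aged-injury), so age and the time since surgery both differ between the young and old injured libraries. No batch and no count of animals per library is in the labels, so library, animal and condition cannot be told apart.

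Fat cells store triglyceride in droplets wrapped by perilipins, take up fatty acids released from lipoproteins, and release them again through a chain of lipases. In bone marrow they arise from the stromal lineage that expresses the leptin receptor and Cxcl12, whose reticular members already carry adipocyte genes such as Adipoq and Lpl without holding fat. PPAR-gamma and the C/EBP factors are the transcription factors known to switch on the fat-cell program.

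Promoter sequences are shown for Plin1, Cidec and Pparg. The first pair are among the genes that chose the cells, and the third is the lead factor of the program. Each is the 250 bases before an annotated transcription start, from RefSeq on GRCm38.p6, printed 5′ to 3′ on the gene's strand, and capitals mark matches on either strand to TTGCNNAA, the letters of a C/EBP-type motif with N for any base. The Plin1 window is chr7:79732777-79733026 on the minus strand, with matches that begin 187 and 58 bases before the start. The Cidec window is chr6:113434765-113435014 on the minus strand, before the second of its 2 starts, with 1 match 198 bases before the start, and the window of its other start holds none. The Pparg window is chr6:115421816-115422065 on the plus strand, before the third of its 3 starts, with matches 215 and 16 bases before the start, and the windows of the other starts hold none. The letters occur in 9.56% of all 32851 promoter windows of that length in the table, and no binding was measured here. For Cidec and Pparg the window shown is the only one of the gene with a match, so these windows are no measure of enrichment.
Plin1: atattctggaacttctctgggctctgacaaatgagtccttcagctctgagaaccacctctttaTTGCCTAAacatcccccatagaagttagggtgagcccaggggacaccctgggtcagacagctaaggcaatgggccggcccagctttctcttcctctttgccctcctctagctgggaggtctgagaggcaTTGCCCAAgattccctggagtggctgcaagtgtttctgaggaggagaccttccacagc
Cidec: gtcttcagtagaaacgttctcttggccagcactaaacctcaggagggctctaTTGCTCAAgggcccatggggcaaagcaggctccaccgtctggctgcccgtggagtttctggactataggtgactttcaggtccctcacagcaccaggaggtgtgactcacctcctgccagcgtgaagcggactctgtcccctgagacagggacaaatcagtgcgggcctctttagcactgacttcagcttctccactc
Pparg: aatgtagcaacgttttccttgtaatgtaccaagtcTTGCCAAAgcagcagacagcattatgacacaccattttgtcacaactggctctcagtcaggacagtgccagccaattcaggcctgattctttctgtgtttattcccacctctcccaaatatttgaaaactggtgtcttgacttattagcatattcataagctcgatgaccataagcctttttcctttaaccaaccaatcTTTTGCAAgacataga

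Adipocyte-rule cells were found in every library but in very unequal number. Values for the libraries are given below in this order: control, naive, exhausted, aged, aged-injury. The cells numbered 7, 87, 16, 2 and 113, and the naive and aged-injury libraries together held 88.9% of them. As shares of the cells without Ptprc, Pecam1 and Cdh5 they were 0.0981% in control (exact 95% binomial interval 0.0394 to 0.202), 2.33% in naive (1.87 to 2.87), 0.501% (0.286 to 0.812) in the exhausted library, 0.0301% (0.00364 to 0.109) in the aged one and 0.643% in aged-injury (0.530 to 0.773). The intervals cover counting error only and leave out the spread between animals. The naive share lay above the intervals of the 4 other libraries, the exhausted and aged-injury intervals overlapped each other, and the control and aged intervals overlapped each other. The shares count sorted cells that passed the filters, not adipocytes in the tissue.

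**Figure D1:**
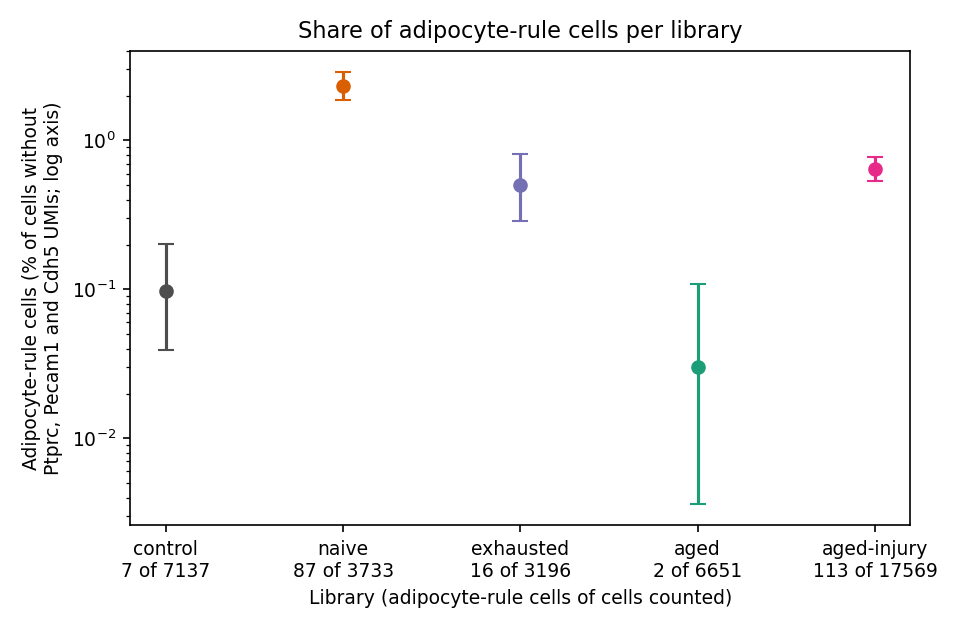
Share of adipocyte-rule cells among cells without Ptprc, Pecam1 and Cdh5 UMIs (y axis, percent, log scale) in each of the 5 libraries (x axis, with the cells counted), as points with exact 95% binomial intervals. The naive library stands highest at 2.33% and the aged library lowest at 0.0301%.

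Depth moved with these shares in the aged-injury library. The median number of UMIs per adipocyte-rule cell was 8989, 6814, 6832, 12359 and 18745, against 8213, 6989, 6471, 6547 and 9501 in all cells without Ptprc, Pecam1 and Cdh5. Cells with at least 3000 UMIs were then thinned to 3000, and the rule, with its genes set to 0, was applied again to the thinned counts. Shallower cells were left out, which were 7.52%, 17.1%, 19.9%, 19.9% and 14.0% of the cells without Ptprc, Pecam1 and Cdh5. After thinning the aged-injury share was 0.197%, the exhausted share 0.391% and the naive share 1.57%. No cell was left among 5526 in the aged library, which allows a share of up to 0.0543%. These shares thus changed in depth and in the cells counted. The naive library stayed highest and the aged library lowest under thinning, and the exhausted share then lay above the aged-injury share.

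The rule sits on a slope rather than at a gap. Just inside it were 18 cells with exactly 3 UMIs of the droplet genes, with a median Fabp4 level of 2847 CPM (the counts of a gene over all UMIs of the cell, scaled to 1000000), and 15 of the 18 were in the aged-injury library. Just outside were 17 cells with 2 UMIs of 2 genes, at 1016 CPM, and 156 cells with 3 or more UMIs of a single gene, at 3392 CPM. The 207 cells with 4 or more droplet UMIs had a median Fabp4 level of 17433 CPM. Of all 225 cells, Plin1 (perilipin-1, the main gatekeeper of the droplet surface) was detected in 218, Plin4 in 162, Cidec (which joins droplets into a single large one) in 150, and all 3 in 80. Cidec was found in 88.5% of the naive cells and in 45.1% of the aged-injury cells.

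Fabp4, the fatty acid carrier of fat cells, was listed as a marker of these cells but was not used to choose them. It was detected in 223 of the 225 cells, and both cells without it were in the aged-injury library. Its level over the pooled cells of a library was 18734, 22522, 31197, 6271 and 7692 CPM, against 66.1, 147, 133, 33.0 and 151 in reticular cells. Some blood cells had Fabp4 as well: among Ptprc-positive cells without Lepr, a Fabp4 UMI was found in 3.91%, 14.6%, 6.64%, 2.08% and 22.8% of cells, at median depths of 7628, 8123, 7647, 6277 and 9754 UMIs. Whether those UMIs came from free RNA, from pairs of cells or from the blood cells themselves was not tested. In the 5 libraries at least 98.2% of the adipocyte-rule cells had Fabp4, far above the share among these Ptprc-positive cells.

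Blood and endothelial markers were low in the pooled cells, though both were above the reticular level in some libraries. Pericyte and smooth-muscle markers were above it in the naive and aged-injury libraries. The 24 blood genes summed to 299, 255, 223, 202 and 139 CPM, against 353, 229, 353, 124 and 94.7 in reticular cells, and no adipocyte-rule cell had more than 2% of its UMIs in them. The 12 pericyte and smooth-muscle genes summed to 283, 1359.8, 223, 364 and 1669 CPM, against 653, 592, 515, 556 and 494 in reticular cells. Of the UMIs of the pericyte gene Rgs5, 99.0% in naive and 59.4% in aged-injury were in 1 cell, whereas Acta2, smooth-muscle actin, was in 26 aged-injury cells, and 1 other naive cell had 50.01% of its UMIs in erythroid genes. The 14 endothelial genes, which include a pair the rule sets to 0, summed to 31.5, 64.6, 0, 0 and 83.5 CPM, with at most 11 of them detected in a library. In reticular cells, where that pair is also at 0, they summed to 79.0, 51.9, 64.7, 79.8 and 70.1 CPM. Whether these markers have a part in the results was not tested. The fibroblast genes Pi16 and Clec3b and the Schwann-cell gene Sox10 had no UMI in any of the 225 cells. tdTomato RNA was detected in 57.1%, 41.4%, 43.8%, 0% and 57.5% of the cells, close to the 40.3% to 49.8% of reticular cells except in the aged library with its 2 cells, and in 1.74% to 7.02% of the Ptprc-positive cells. Cell barcodes occurred in more than 1 library 21 times in the series, and none of these was an adipocyte-rule cell.

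Reticular cells of the same library served as the comparison throughout: cells that passed the same filters with none of the 6 rule genes, at least 3 Lepr UMIs and at least 1% of UMIs from Cxcl12, the chemokine that marks them. They numbered 5609, 1929, 1858, 5246 and 10817, so Lepr, Cxcl12, Plin1, Cidec and Plin4 differ by construction. A gene counted as higher or lower when its level in CPM, pooled over the cells of a library, differed at least 2-fold the same way in all 5 libraries. Of 4330 genes measured at a mean of 50 CPM or more, 164 (3.79%) were higher and 108 (2.49%) lower in adipocyte-rule cells. With TMM scaling, which rescales libraries by a trimmed mean of log ratios, the counts were 90 higher and 273 lower, and the median log2 ratio of all measured genes moved from 0.07 to -0.43. In the 2 aged cells 1 UMI is worth 40.5 CPM, so ratios there rest on very few UMIs, and without the aged library the counts were 323 and 297. Of the genes named below, Abhd5, Fabp5, Pparg, Trarg1, Hadhb and Echs1 were no longer called with TMM scaling, and Dgat1, Adrb3, Trarg1, Igf1r, Stat5a, Nfkbiz, Fos and Dusp1 without deep cells, meaning cells of over 2.5 times the median UMIs of their library.

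**Figure D2:**
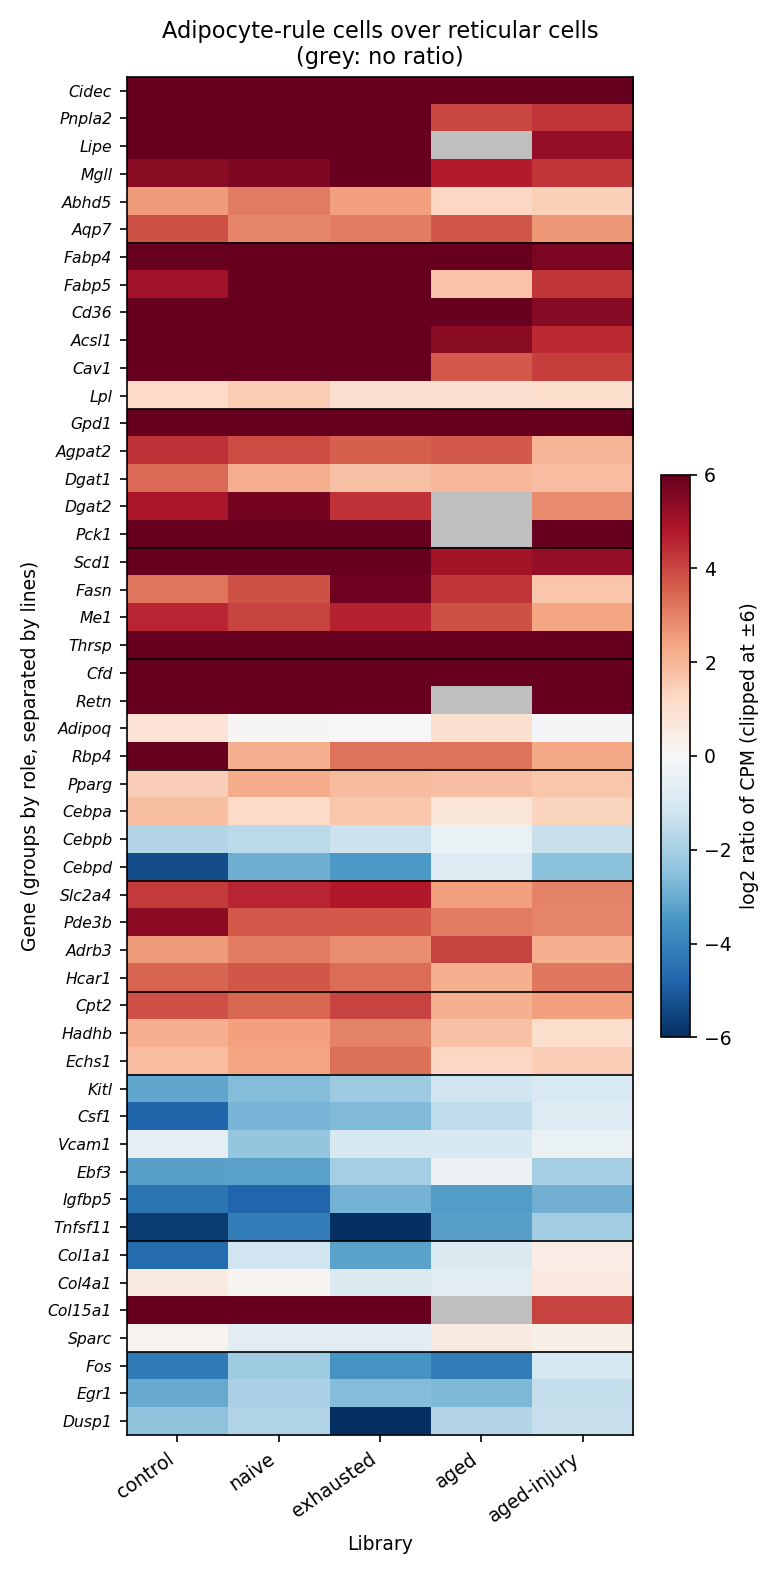
Log2 ratio of CPM in adipocyte-rule cells over reticular cells of the same library (colour, clipped at 6 either way) for genes grouped by role (rows) in the 5 libraries (columns), with grey where too few UMIs gave no ratio. Genes of the droplet, fatty acid handling and fat synthesis are red in every library that gave a ratio, Adipoq is near white, and the reticular and immediate early genes are mostly blue.

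The lipases that empty the fat droplet stood out beside its coat. Among the droplet coat and lipolysis genes, 6 of 15 measured genes were higher and 0 lower, with a median log2 ratio of 2.73 beside 0.07 over all measured genes, and Plin1 and Cidec are among those by construction. Pnpla2, the lipase (ATGL) that makes the first cut of triglyceride, was at 1157, 1274, 3079, 243 and 337 CPM in adipocyte-rule cells and at 12.8 to 17.4 in reticular cells. Mgll, which makes the last cut, was at 205, 416, 980.4, 121 and 89.8 CPM against 4.13 to 8.52. Both lay in every library above all 5 reticular values, and lowest in the aged and aged-injury libraries. Lipe, the hormone-sensitive lipase, was at 330.5, 240.5, 409, 0 and 64.5 CPM against 1.69 to 3.18, with no UMI in the 2 aged cells and therefore no ratio there. Abhd5, the activator of the first lipase, was 2.39-fold to 8.70-fold higher, and Aqp7, the channel through which the freed glycerol leaves the cell, 6.07-fold to 14.3-fold higher. Plin2, the perilipin of small droplets in many cell types, was at 409, 153, 229, 40.5 and 118 CPM against 23.9 to 35.7. G0s2, an inhibitor of the first lipase, was at 386, 269.5, 156, 40.5 and 157 CPM against 20.8 to 49.2.

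Several carriers and activators of fatty acids were higher than in reticular cells, and most measured genes of this group did not pass. In this group 6 of 14 measured genes were higher and 0 lower, with a median log2 ratio of 2.64. Cd36, a fatty acid receptor of the cell surface, was at 1503, 1504, 1305, 526 and 493 CPM against 2.61 to 11.1 in reticular cells. Acsl1, which activates fatty acids with coenzyme A, was at 1802, 2889.9, 2141, 1011 and 527 CPM against 20.8 to 23.9. Fabp5, a second fatty acid carrier, was at 236, 2499, 1071, 40.5 and 465 CPM against 7.26 to 23.8. Fabp5 spread over the libraries more than Cd36 or Acsl1, with the naive library highest and the aged library, with a single UMI, lowest. Cav1, the caveolin of fat-cell membrane pits, was 12.9-fold to 182-fold higher. Lpl, lipoprotein lipase, was at 15130, 16435, 13466, 8658 and 12518 CPM against 6537, 5716, 6719, 4628 and 6006 in reticular cells, higher in all 5 libraries but under 2-fold in the aged library. Apoe, the apolipoprotein, was at 3092, 2802, 3807, 2711 and 1199.8 CPM against 2252, 1988, 1945, 2367 and 1577, lower only in the aged-injury library of the 5.

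Genes that build triglyceride and new fatty acids included some that reticular cells barely carried. Of the triglyceride synthesis group, 4 of 9 measured genes were higher and 0 lower, with a median log2 ratio of 3.50. Gpd1, which makes the glycerol backbone from glucose, was at 543, 1198, 1642, 243 and 185 CPM, and reticular cells had 0.398 to 1.24. Agpat2, an acyltransferase of the middle of the path, was 4.04-fold to 19.96-fold higher, and Dgat1, which adds the last fatty acid, 3.34-fold to 10.4-fold higher. Dgat2, the other enzyme of that last step, was at 149, 354, 114, 0 and 67.5 CPM against 5.003 to 9.33, and Pck1, which makes glycerol backbone without glucose, at 134, 617, 331, 0 and 135 against 0 to 0.377; the aged cells had no UMI of either. Of the lipogenesis group, 6 of 13 measured genes were higher and 0 lower, with a median of 2.12. Scd1, which puts the double bond into stearate, was at 11354, 8092, 18663, 3601 and 3317 CPM against 65.2 to 112. Thrsp, a lipogenic protein that responds to thyroid hormone, was at 346, 711, 1359, 40.5 and 171 CPM against 0.123 to 0.485. Fasn, fatty acid synthase, was 3.21-fold to 56.4-fold higher, and Me1, which supplies its NADPH, 5.13-fold to 24.5-fold higher. Acly and Acaca, the enzymes that feed carbon into the same path, did not reach 2-fold in every library, and the 4 measured genes of cholesterol synthesis gave no call.

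Of the secreted products, complement factor D separated these cells from reticular cells, and adiponectin did not. In this group 2 of 11 measured genes were higher and 1 lower, with a median log2 ratio of 0.89. Cfd, complement factor D or adipsin, was at 5704, 4505, 9443, 445 and 1458 CPM against 0.830 to 6.22 in reticular cells. Adipoq, adiponectin, was at 6790.1, 4599, 4878, 7808 and 3671 CPM against 3712, 4443, 4741, 3987 and 4011, a ratio of 0.915 to 1.96 over the libraries. Adipoq thus lay within 2-fold of the reticular level in every library, and on either side of it. Retn, resistin, was at 126, 171, 638, 40.5 and 48.5 CPM against 0 to 0.701, with 1 UMI in the aged cells. Rbp4, the retinol carrier, was at 1078, 300.2, 583, 162 and 149.7 CPM against 16.0 to 68.7, and Vegfa, the vessel growth factor, was 2.32-fold to 4.82-fold lower. The leptin gene Lep had 7 UMIs in all 225 cells.

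Most measured transcription factors of the fat-cell program gave no call against reticular cells, which carry the same factors. In this group 1 of 16 measured genes were higher and 2 lower, with a median log2 ratio of -0.10. Over all 4330 measured genes, 3.79% were higher and 2.49% lower, and counts this small cannot be set apart from those shares. Pparg, the master regulator, was at 362, 689, 577, 405 and 369.7 CPM against 129, 147, 154, 117 and 117 in reticular cells. Cebpa, its partner in mature fat cells, was at 1188, 1306, 1528, 647 and 1129.8 CPM against 343, 590.5, 489, 385 and 445. Both were higher in all 5 libraries, and Cebpa missed 2-fold in the aged library. Cebpd, a factor of the early stage, was at 31.5, 142, 90.2, 769 and 175 CPM against 1257, 1085, 967, 1326 and 972, and Cebpb, the other early factor, at 228, 257, 283, 688 and 251 against 782, 779, 682, 899 and 625. The early factors were on the low side in every library, though not 2-fold in each. Stat5a, a transcription factor of cytokine and growth hormone signals, was at 7.87, 21.0, 30.1, 40.5 and 27.4 CPM against 50.5 to 91.1, and Nr4a1, an early response receptor, 3.06-fold to 29.4-fold lower. Ebf1 was at 959.9, 785, 457, 2751 and 1150.1 CPM against 1065, 1126, 999, 1047 and 1115, higher in the 2 aged cells, lower in control, naive and exhausted, and near the reticular level in aged-injury.

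The insulin-responsive glucose transporter and 3 receptors of fat cells were higher, and the adaptors of the insulin receptor gave no call. Of the insulin and glucose group, 4 of 16 measured genes were higher and 1 lower, with a median log2 ratio of 0.35, which turned to -0.087 with TMM scaling. Slc2a4, the insulin-regulated glucose transporter GLUT4, was at 134, 104, 144, 40.5 and 55.2 CPM against 4.42 to 7.41. Pde3b, through which insulin brakes lipolysis, was at 401, 274, 301, 80.9 and 122 CPM against 9.67 to 23.7. Trarg1, a partner of GLUT4 trafficking, was 2.03-fold to 8.88-fold higher, and Tbc1d4, which holds the transporter inside the cell, 2.88-fold to 8.72-fold higher. The adaptors Irs1 and Irs2 did not differ 2-fold in every library, and Igf1r, the IGF receptor, was 2.07-fold to 4.09-fold lower. Of the adrenergic and lipolytic receptors, 3 of 7 measured genes were higher and 0 lower, with a median of -0.07. Of the 7 receptors 3 lay above the reticular level and 4 below it. Adrb3, the beta-adrenergic receptor of fat cells, was at 102, 113, 114, 162 and 46.0 CPM against 9.86 to 17.4, and was detected in 1, 28, 5, 1 and 27 cells. Hcar1, the lactate receptor that restrains lipolysis, was 4.46-fold to 13.2-fold higher, and Ffar2, a receptor for short-chain fatty acids, 13.7-fold to 94.8-fold higher.

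Genes that burn fatty acids were higher as well. Of the beta oxidation group, 6 of 15 measured genes were higher and 0 lower, all 15 had a mean ratio above 1, and the median log2 ratio was 1.95. Cpt2, which completes the entry of fatty acids into mitochondria, was at 142, 146, 192, 40.5 and 51.9 CPM against 9.15 to 13.2. Echs1, an enzyme of the oxidation spiral, was 2.38-fold to 9.85-fold higher, and Hadhb, a subunit of its trifunctional protein, 2.05-fold to 7.88-fold higher. The genes of heat-producing fat gave no call among 2 measured, and Ucp1, the uncoupling protein, had 1 UMI in the 225 cells, Cidea 2 and Elovl3 none.

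Beyond the gene groups, the 20 genes with the highest mean ratio that met the rule for naming held several further genes with a known place in fat cells. Car3, a carbonic anhydrase abundant in fat, was at 16413, 22835, 34547, 9750.0 and 6931 CPM against 12.8 to 102 in reticular cells. Adig, adipogenin, a small membrane protein of fat cells, was at 126, 181, 325, 40.5 and 41.3 CPM against 0.0568 to 0.216. Lgals12, the galectin that sits on the droplet, was at 102, 100.1, 235, 80.9 and 71.2 CPM against 0.133 to 0.702. These 3 had their lowest adipocyte-rule level in the aged or aged-injury library. Cdo1, cysteine dioxygenase of the taurine path, was at 787, 1149, 2845, 445 and 263 CPM against 3.85 to 18.1. Tshr, the thyrotropin receptor, was at 393, 275, 325, 121 and 137 CPM against 0.587 to 2.47, and was detected in 6, 47, 9, 1 and 68 cells. Chchd10, a protein of the mitochondrial inner space, was 20.6-fold to 234-fold higher, and Fcor, a corepressor of Foxo1, 26.7-fold to 153-fold higher. Cyp2f2, a cytochrome P450, was at 1345, 125, 367, 283 and 93.2 CPM, with the control library far above the rest.

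Adipocyte-rule cells carried much less RNA of the niche genes that mark reticular cells. Of the reticular identity group, 0 of 23 measured genes were higher and 12 lower, with a median log2 ratio of -2.44, and Lepr and Cxcl12 in it differ by construction. Igfbp5, an IGF-binding protein abundant in reticular cells, was at 1589, 617, 2971, 3398 and 2524 CPM against 32698, 16433, 21025, 34248 and 18897. Kitl, stem cell factor, was at 291, 372, 493, 1133 and 1196 CPM against 2225 to 2632, and Csf1, the macrophage growth factor, at 31.5, 146, 156, 283 and 423 against 716 to 1011. Kitl and Csf1 were lower in all 5 libraries, and the aged-injury cells came within 2-fold of the reticular level for both. Foxc1, a factor that maintains reticular cells, was 2.23-fold to 7.38-fold lower, Grem1, a BMP antagonist, 4.68-fold to 58.6-fold lower, and Gas6, a ligand of TAM receptors, 2.47-fold to 36.3-fold lower. Hp, haptoglobin, was the 1 measured gene of the group with a mean ratio above 1, at 2628, 1819.8, 1919, 526 and 1426 CPM against 870.1 to 1189. Of the niche and lineage factors, 0 of 14 measured genes were higher and 5 lower, with a median of -2.13, and Cxcl12 is among these. Tnfsf11, the osteoclast factor RANKL, was at 7.87, 37.1, 6.01, 40.5 and 117 CPM against 391 to 655, and Ptn, the growth factor pleiotrophin, at 7.87, 2.42, 0, 0 and 38.8 against 159 to 505.

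By their mean log2 ratio over the libraries, matrix genes lay mostly below the reticular level without passing, and the measured bone genes all lay below it. The aged-injury library differed when the genes were summed. There the osteoblast genes were at 19607 CPM against 17490 in reticular cells, and the matrix genes at 37937 against 30801. In every other library both sums lay below those of reticular cells. Of the osteoblast genes, 0 of 12 measured genes were higher and 2 lower, with a median log2 ratio of -1.51. Ibsp, bone sialoprotein, was at 62.9, 181, 12.03, 243 and 322 CPM against 1886 to 5064. Of the extracellular matrix genes, 0 of 25 measured genes were higher and 1 lower, with a median of -0.82, or -1.25 with TMM scaling and -1.52 without deep cells, and 21 of the 25 lay below the reticular level. Col1a1, the main bone collagen, was at 47.2, 1240.4, 355, 485 and 5747 CPM against 1169, 2849, 3265, 886 and 4170.2, with the control library lowest and the aged-injury library highest in the adipocyte-rule cells. Col15a1, a collagen next to basement membranes, was at 220.3, 619.8, 174, 0 and 542 CPM against 1.60 to 32.1, higher in the 4 libraries that gave a ratio, and Col6a3, a collagen VI chain, was at 1086, 708, 247, 40.5 and 708 against 46.0 to 166. Col15a1 and Col6a3 are among the 4 matrix genes above the reticular level by their mean log2 ratio, and Col1a1 is among the 21 below it. Dcn, the proteoglycan decorin, was at 7.87, 3.23, 12.03, 40.5 and 67.9 CPM against 107 to 826, and Mmp13, a collagenase, at 15.7, 79.9, 24.1, 40.5 and 979 against 753 to 3297. Aldh1a2, which makes retinoic acid, had the lowest mean ratio of all genes named by rank, at 15.7, 30.7, 12.03, 40.5 and 111 CPM against 629.6 to 1470.4.

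Immediate early genes, which cells switch on within minutes of stimulation or handling, were low. Of this group, 0 of 22 measured genes were higher and 7 lower, with a median log2 ratio of -1.44. Fos, a subunit of AP-1, was at 472, 993, 565, 405 and 2854 CPM against 8856, 4377, 6520.2, 7360.4 and 5868, and Egr1, an early growth response factor, was 2.71-fold to 8.25-fold lower. Dusp1, a phosphatase of the MAP kinases, was at 157, 154, 12.03, 283 and 288 CPM against 544 to 968. Of the inflammatory factors, 0 of 15 measured genes were higher and 2 lower, among them Socs3, the brake on gp130 signals, at 7.87, 46.8, 60.1, 121 and 116 CPM against 373 to 659.6, and Nfkbiz, a nuclear regulator of NF-kappa-B, 2.43-fold to 6.56-fold lower. Of the interferon and antigen presentation genes, 0 of 11 measured genes were higher and 1 lower, the latter Irf1, 2.04-fold to 14.7-fold lower.

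Single adipocyte-rule cells of 1 library differed widely in their fat-cell RNA. The droplet genes made up 141 to 7993 CPM in single naive cells, with a median of 2744, and 68.6 to 7261 in single aged-injury cells, with a median of 684. Cells with at least 2000 CPM of these genes numbered 6 of 7 in control, 59 of 87 in naive, 8 of 16 in exhausted, 0 of 2 in aged and 17 of 113 in aged-injury. For Fabp4 the lowest, median and highest cell were at 864, 31241 and 67238 CPM in naive and at 0, 5106 and 84507 in aged-injury. For Cfd the medians over cells were 1622 CPM in naive and 0 in aged-injury, and for Cxcl12 895 and 11295. The ranges of the libraries overlapped for each of these genes, and the middle of the aged-injury cells lay at lower fat-cell and higher reticular levels than that of the naive cells.

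**Figure D3:**
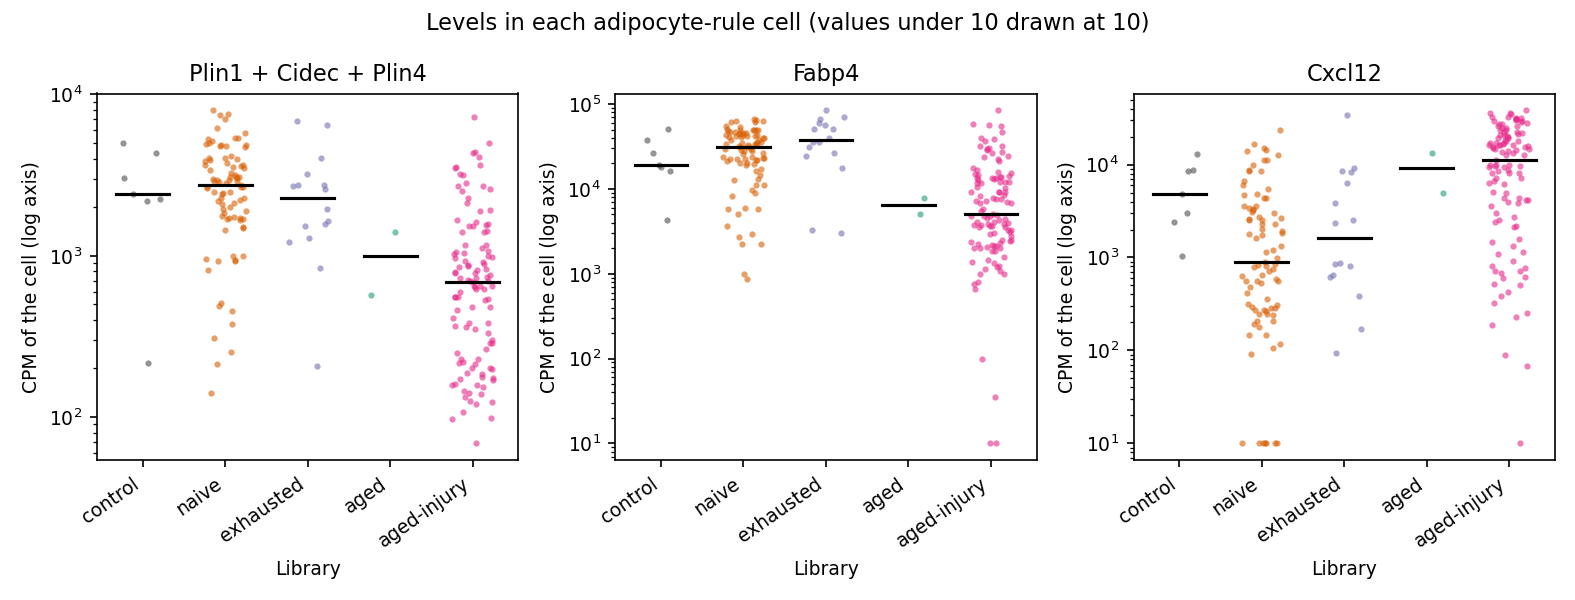
CPM of the 3 droplet genes summed, of Fabp4 and of Cxcl12 (y axes, log scale, values under 10 drawn at 10) in every adipocyte-rule cell, by library (x axis), with bars at the medians. Most naive cells lie high for Fabp4 around a median of 31241, while the aged-injury cells spread widely around 5106 and lie high for Cxcl12.

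In the aged-injury library, 50 of the 113 cells (44.2%, exact 95% interval 34.9 to 53.9) also met the reticular thresholds of 3 Lepr UMIs and 1% Cxcl12, against 4 of 87 in naive (4.60%), 1 of 16 in exhausted and none of the 7 control and 2 aged cells. Deeper cells reach 3 Lepr UMIs more easily, and median depths were 18745 UMIs in aged-injury, 6814 in naive and 6832 in exhausted. In naive the 4 cells had a median of 15634 UMIs, against 6771 in the other 83. These shares were not compared at equal depth. These 50 cells had 5019 Fabp4 CPM and 59.4 of Cidec, against 9732 and 261 in the other 63. Cfd was at 301 against 2341 CPM, and Scd1 at 1448 against 4743. Among reticular genes, Igfbp5 was at 4769.7 against 811 CPM, Kitl at 1763 against 764, and Ebf3, a factor of reticular cells, at 572 against 114. The 50 cells held droplet-gene RNA together with reticular RNA, at 4818 Adipoq CPM against 2795 in the other 63. Deep cells, with over 2.5 times the median UMIs of their library, made up 37 of the 113 aged-injury cells and 22 of the 87 naive cells (25.3%), beside 3.37% and 7.52% of reticular cells. In aged-injury, the 37 deep cells had Cidec at 24.96 CPM against 349 in the others, and Cfd at 331 against 2783. No caller of doublets was run, and whether some of these barcodes hold a pair of cells was not tested.

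Some of the cells with the most fat-cell RNA had almost no mitochondrial RNA. In 37 of the 225 cells under 1% of the UMIs were mitochondrial: 1 of 7 in control, 20 of 87 in naive (23.0%, 14.6 to 33.2), 9 of 16 in exhausted (56.3%, 29.9 to 80.2), none in aged and 7 of 113 in aged-injury (6.19%). In reticular cells this share was 0.629% to 4.74%. Malat1, a long RNA kept in the nucleus, was at 70.1 CPM in the 20 naive cells with little mitochondrial RNA and at 3199.9 in the other 67, at median depths of 4604 and 7897 UMIs. Hspa5, a chaperone of the endoplasmic reticulum, was at 351 against 1188 CPM. Fat-cell genes were split. Car3 was at 51674 against 19910 CPM, Gpd1 at 3576 against 957, and Fasn at 631 against 122. Lpl was at 10202 against 17067 CPM, Plin1 at 1253 against 1431, Cd36 at 1025 against 1553, and Retn at 70.1 against 181. Matrix and immediate early RNA was low, with Col1a1 at 131 against 1353 CPM and Fos at 61.4 against 1087. By group, the median log2 ratio of the 20 cells over the other 67 was -1.97 for the 22 matrix genes and -1.96 for the 19 immediate early genes, all of them below 0, and 0.63 for the 17 beta oxidation genes, 15 of them above 0, beside -0.02 over all 3489 genes measured. The medians were 0.52 for lipogenesis, with 9 of 13 genes above 0, -0.48 for triglyceride synthesis, with 4 of 10 above, -0.92 for adipokines, with 2 of 11 above, and -0.85 for the lipolytic receptors, with 1 of 7 above. The erythroid genes, which are high in 1 of these cells, had 6 of 6 above 0. The 22 deep naive cells, which held 69.0% of the naive UMIs, were all among the other 67. These deep cells had Col1a1 at 1598 CPM against 443 in the shallower naive cells, and Fabp4 at 18989 against 30397. The split was not repeated without deep cells, so the part of depth in it was not tested. In naive reticular cells split the same way, 43 against 1886, the medians were -0.76 for matrix and 0.20 for immediate early genes. In exhausted, the 9 cells with little mitochondrial RNA had Fabp4 at 49963 CPM against 19421 in the other 7, Hspa5 at 62.4 against 2310.1, and Cfd at 3276 against 13313. The 3 deep exhausted cells, with 51.7% of the exhausted UMIs, were all among these 7, whose pooled values lean on them. The deepest, of 46644 UMIs, had Hspa5 at 2744 CPM and Cfd at 22833. In the shallower cells of the 7, Hspa5 ran from 0 to 609 CPM and Cfd from 609 to 38520. This split was made after the values were seen and whether such barcodes hold whole cells was not tested.

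**Figure D4:**
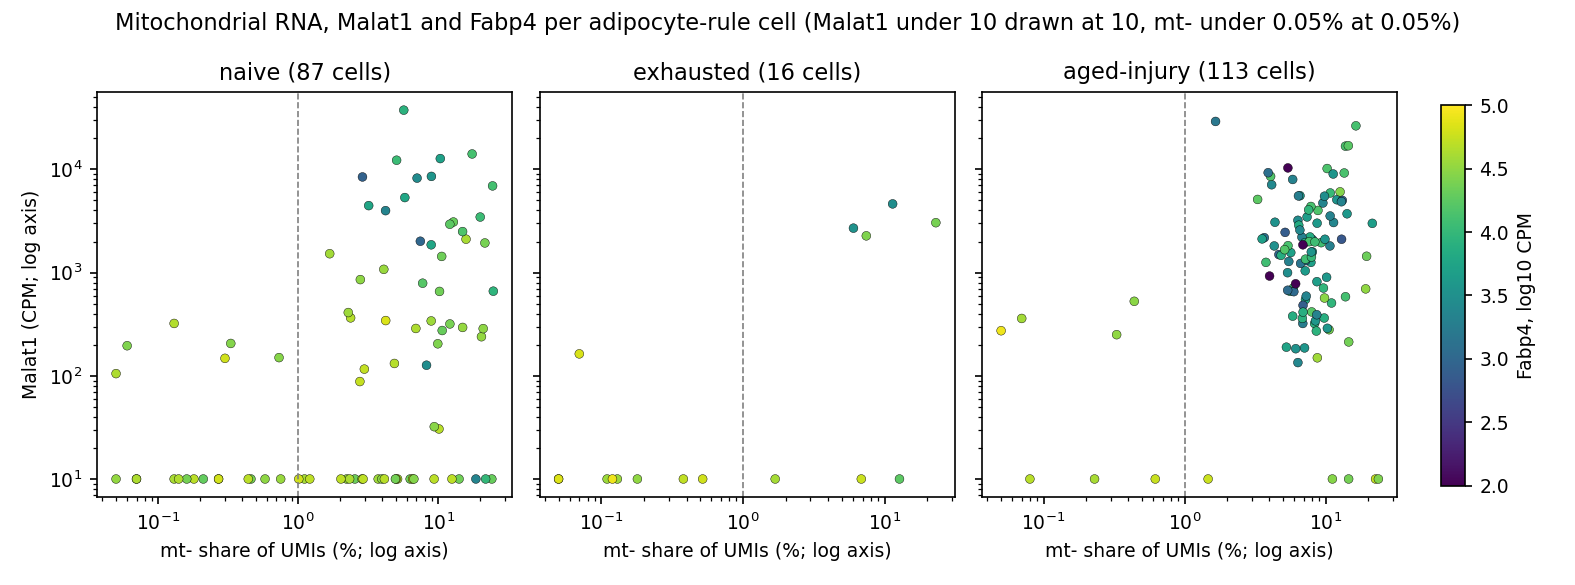
Malat1 level (y axis, CPM, log scale, under 10 drawn at 10) against the mt- share of UMIs (x axis, percent, log scale, under 0.05 drawn at 0.05) in each adipocyte-rule cell of the naive, exhausted and aged-injury libraries, coloured by Fabp4. Cells left of the dashed line at 1% lie at low Malat1, and most of them are high in Fabp4. In naive, many cells right of the line also lie at low Malat1.

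**Figure D5:**
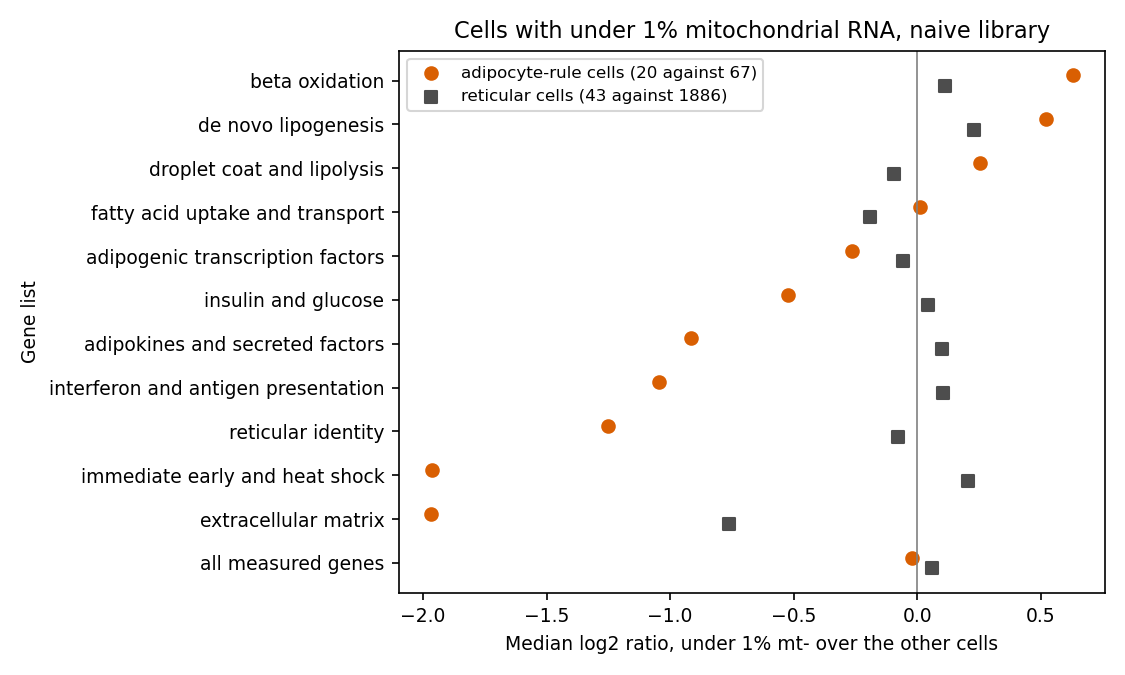
Median log2 ratio of gene groups (y axis) in naive cells with under 1% mt- RNA over the other cells (x axis), for adipocyte-rule cells (circles, 20 against 67) and reticular cells (squares, 43 against 1886). In adipocyte-rule cells the matrix and immediate early groups lie near -2 and beta oxidation at 0.63. All deep naive adipocyte-rule cells are among the 67.

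The comparisons between libraries share libraries with each other, and the first sets 87 naive cells, 2 weeks after an ablation, against 7 control cells. A gene counted as changed between libraries when its pooled level differed at least 2-fold and the exact 95% interval of the ratio, which covers counting error only, left out 1. Of 3512 genes measured, 265 (7.55%) were higher and 153 (4.36%) lower in naive, or 364 and 108 with TMM scaling. Deep cells carried 69.0% of the naive UMIs, and without them 172 genes were higher and 210 lower, of which 46 and 65 were among the calls above. The levels of Fabp4, 18734 in control and 22522 CPM in naive, and of Pparg, 362 and 689, lay within 2-fold of each other. Fabp5 was 10.6 times (7.40 to 15.7) its control level, 27.7 times without deep cells, and its level in reticular cells 3.28 times. Rbp4 was 0.279 times (0.228 to 0.341) its control level, and 0.305 times without deep cells. Gpd1 was 2.21 times (1.73 to 2.85) its control level, and 1.85 times, which is no call, without cells under 1% mitochondrial RNA. Thrsp was 2.05 times (1.52 to 2.85), and 1.34 times, which is no call, without deep cells. Of the matrix genes, 6 of 22 measured genes were higher and 0 lower, with a median log2 ratio of 0.44 beside 0.14 over all measured genes, and without deep cells 2 of 21 were higher and 2 lower. Col1a1 was 26.3 times (12.04 to 71.7) its control level, against 2.44 times in reticular cells, and 5.61 times without deep cells. Fn1, fibronectin, had no UMI in the control cells and was in 29 naive cells. With that 0 read as 3 counts it was 12 times as high, a call that was lost without deep cells. Markers of other cells moved with these: 4 of 7 measured pericyte and smooth-muscle genes and 4 of 4 erythroid genes were higher in naive. Without the 1 naive cell of over 2% erythroid UMIs, 0 of 3 erythroid genes were higher and 3 lower, and 6 of 22 matrix genes were higher. Without deep cells, 1 pericyte and smooth-muscle gene was measured and gave no call, and 4 of 6 erythroid genes were higher. What part these markers have in the result was not tested. Of the control UMIs, 37.3% came from 1 cell, so each control value leans on it.

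The second comparison sets 16 exhausted cells, sampled 2 weeks after a second ablation, against the 87 naive cells. Of 3532 genes measured, 169 (4.78%) were higher and 280 (7.93%) lower in exhausted, or 95 and 430 with TMM scaling. Without deep cells 132 were higher and 252 lower, of which 38 and 79 were among the calls above. Of the matrix genes, 0 of 22 measured genes were higher and 15 lower, all 22 had a ratio under 1, and the median log2 ratio was -1.41 beside -0.01 over all measured genes. Without deep cells 14 of 21 matrix genes were lower, with a median of -1.65. Col3a1 was 0.272 times (0.193 to 0.373) the naive level and Col6a1 0.296 times (0.238 to 0.366), or 0.394 and 0.216 times without deep cells, and 1.25 and 0.898 times in reticular cells. Col1a1 was at 1240.4 CPM in naive and 355 in exhausted, 0.286 times (0.217 to 0.371), but 0.815 times without deep cells and 0.723 times as a mean over cells, neither of which is a call. Spp1, osteopontin, was in 2 exhausted cells and at 0.0502 times (0.00605 to 0.183) the naive level, and Klf2, a zinc-finger transcription factor, at 0.0891 times (0.0325 to 0.195), or 0.149 and 0.208 times without deep cells. Markers of other cells moved with the matrix genes: 6 of 9 osteoblast genes were lower, with a median of -1.61, 5 of 7 pericyte and smooth-muscle genes, with a median of -1.56, and 4 of 4 erythroid genes. Without the 1 naive cell of over 2% erythroid UMIs, 0 of 3 erythroid genes and 16 of 22 matrix genes were lower. Without deep cells, 3 of 8 osteoblast and 5 of 6 erythroid genes were lower, and the 1 measured pericyte and smooth-muscle gene gave no call. The part of these markers in the result was not tested. Retn was 3.73 times (2.92 to 4.73) the naive level, and 3.02 times without deep cells. Of the droplet and lipolysis genes, 3 of 14 measured genes were higher and 0 lower, with a median of 0.34, which was -0.16 with no call among 14 genes without deep cells. Pnpla2 was at 1274 CPM in naive and 3079 in exhausted, 2.42 times (2.18 to 2.67), and Mgll was 2.35 times (1.96 to 2.81) the naive level, or 1.57 and 1.53 times, neither a call, without deep cells. Scd1 was 2.31 times (2.21 to 2.40) the naive level and Fasn 2.78 times (2.12 to 3.62), or 1.32 and 1.93 times, neither a call, without deep cells. Dgat2 was 0.323 times (0.192 to 0.510) the naive level, and Deptor, an inhibitor of mTOR among the 10 genes named for the highest ratios, 2.67 times (2.06 to 3.42), and without deep cells neither was called, at 0.375 and 1.67 times. Cfd was 2.10 times (1.98 to 2.22) the naive level in the pooled cells, but 67.8% of the exhausted Cfd UMIs were in 1 cell, and as a mean over cells the log2 ratio was -0.31. Fabp5 was 0.428 times (0.366 to 0.498) the naive level, and its log2 ratio was 0.12 without the deep cells. Cells with little mitochondrial RNA, which carried little matrix RNA in naive, were 56.3% of the exhausted and 23.0% of the naive cells, and without them the medians of the matrix, beta oxidation and droplet groups were -0.94, 0.17 and 0.52.

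The aged library held 2 adipocyte-rule cells, 1 with 57.0% of their UMIs, so its values describe those cells. Against the 7 control cells, 85 (7.19%) of 1183 measured genes were higher and 203 (17.2%) lower, or 63 and 367 with TMM scaling. Without the deep cells 289 genes were measured, of which 60 were higher and 115 lower. Fabp4 was at 6271 CPM against 18734 in control, 0.335 times (0.283 to 0.394) the level, and at 0.499 times in reticular cells. Of the rule genes, Plin1 was at 769 against 1684 CPM and Cidec at 162 against 535. Ebf1, an early B-cell factor that also acts in fat and reticular cells, was at 2751 CPM in the aged and 959.9 in the control cells.

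The last comparison sets the 113 aged-injury cells, 1 week after an ablation, against those 2 aged cells. Of 3717 measured genes, 194 (5.22%) were higher and 292 (7.86%) lower, or 418 and 165 with TMM scaling, so the balance of the calls turned with the scaling. Of the matrix genes, 14 of 25 measured genes were higher and 0 lower, with a median log2 ratio of 1.20 beside -0.13 over all measured genes, and without deep cells 14 of 24 were higher. Col1a1 was at 5747 CPM against 485, 11.8 times (6.77 to 22.9) the aged level, and 4.71 times in reticular cells. Spp1 had no UMI in the aged cells and was at 1951 CPM in 80 aged-injury cells. With that 0 read as 3 counts it was 16.1 times as high, or 6.52 times without deep cells. Cxcl9, a chemokine induced by interferon, likewise had none in the aged cells and was at 983 CPM, 8.10 times as high by the same reading. Cfd was 3.28 times (1.83 to 6.57) the aged level, 6.25 times without deep cells, and Fabp5, with 1 UMI in the aged cells, 11.5 times (2.06 to 455). Ebf1 was 0.418 times (0.329 to 0.540) the aged level. Adipoq was 0.470 times (0.408 to 0.545) the aged level, 7808 in aged and 3671 CPM in aged-injury, and 0.594 times, which is no call, without deep cells. Of the adipogenic factors, 0 of 13 measured genes were higher and 6 lower, with a median of -0.97. The lower ones were Cebpb, Cebpd, Klf9, Ebf1, Tcf7l1 and Tcf7l2, and each rests on the same 2 aged cells. Of the pericyte and smooth-muscle genes, 2 of 7 measured genes were higher and 1 lower, and their part in the result was not tested.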

How the data were processed

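Single-cell RNA was measured in 5 libraries, 1 per group, grouped by GEO's labels. The authors deposited 1 matrix of raw UMI counts per library, with the genome build GRCm39 and Seurat 5.1 named in the submitters' processing notes. Which aligner, counter or cell caller was used is not given in the sources used here, so the effect on the 11204, 7480, 8603, 9814 and 20867 barcodes deposited (control, naive, exhausted, aged and aged-injury) is not known. The libraries held 95397522, 58895655, 68170277, 62179497 and 224155538 UMIs.

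Counts were filtered per cell as the opening states, summed over the adipocyte-rule or reticular cells of each library, and divided by all UMIs of those cells (counts per 1000000 UMIs, CPM, with Python 3.11.15, numpy 2.4.6, pandas 2.3.3 and scipy 1.17.1). Figures were drawn with matplotlib 3.10.9. TMM factors came from edgeR 4.0.16 in R 4.3.3. Ratios between libraries needed 50 CPM and 20 UMIs in one of them, and have exact conditional binomial intervals. A count of 0 was read as a floor of 3 counts. A floor is an upper limit, so a library with no UMI in one group gave a ratio only where the other group exceeded the floor's level, and none where both were at or under 3 counts. List medians run over the genes measured at these minimums. No doublet caller was run, and deep cells were left out in an alternative instead. The calling steps were tested on simulated counts with counting error only, a test that does not cover the spread between cells or animals.

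The members and the 27 gene lists (461 genes) were chosen with earlier results of these data known. Genes outside the lists were named as the 20 highest and 15 lowest called genes by mean log2 ratio against reticular cells, and up to 10 highest and 10 lowest by ratio for each of 4 pairs of libraries. These had to be detected in at least 5 cells of the higher group with under 25% of their UMIs in 1 cell, and blood, endothelial, erythroid, mitochondrial, ribosomal and unnamed genes were passed over. No gene was thus named as higher in the aged cells, and only Cidec as higher in the control cells. Alternatives covered scaling, filters, depth, the droplet threshold, the comparison cells, and deep, blood-carrying, erythroid, reticular or low-mitochondrial cells.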

Additional observations from a re-analysis of the deposited data

How the results depend on the processing

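In all 9 alternatives for the share the naive library was highest, then aged-injury or exhausted, then control, with aged lowest. The naive share was 1.57% after thinning and 1.66% of all cells that passed. The exhausted share was 0.255% of all such cells and 0.239% without cells under 1% mt- RNA. The aged share was 0% after thinning, and the aged-injury share 0.501% with at least 5 droplet UMIs, 0.197% after thinning, 0.469% without deep cells and 0.360% without members that carry reticular RNA. Against reticular cells, 90 genes were higher and 273 lower with TMM scaling, and 323 and 297 without the aged library. With the floor taken as a level wherever a count was 0, 244 were higher. Between naive and control, 172 were higher without deep cells, 46 of them among the 265, and 394 of 8474 tested genes lower at a minimum of 10 CPM and 10 UMIs. Between exhausted and naive, 95 were higher and 430 lower with TMM scaling, 112 higher by the mean over cells, and 442 of 8474 higher at the minimum of 10. Without deep cells 132 were higher and 252 lower there, with 38 and 79 shared. Between aged and control, 224 of 2517 were higher at the minimum of 10, 367 lower with TMM scaling, and 115 of 289 tested lower without deep cells. Between aged-injury and aged, 418 were higher and 165 lower with TMM scaling, and 527 of 8922 lower at the minimum of 10. TMM scaling moved the median log2 ratio of all measured genes to -0.43 against reticular cells, 0.28 for naive, -0.20 for exhausted, -0.96 for aged and 0.39 for aged-injury. The insulin and glucose median against reticular cells turned to -0.087, and the matrix median moved to -1.25, with TMM scaling. Against reticular cells the beta oxidation median was 2.31 by the mean over cells and 2.39 without deep cells, and the matrix median -1.52 without deep cells. For exhausted over naive the beta oxidation median was 0.095 by the mean over cells, 0.57 with at least 5 droplet UMIs and 0.17 without low-mitochondrial cells. The matrix median was -1.16, -1.48 and -0.94 in the same alternatives. Of the genes compared with reticular cells, 59 kept their call in every alternative run and 33 lost it in some, and between libraries 19 kept it, 15 lost it and 2 turned. Cfd in exhausted over naive had a log2 ratio of -0.31 by the mean over cells and -0.58 without deep cells, and Fabp5 0.12 without deep cells. The cause was not tested for any of these. The alternatives without the aged library, low-mitochondrial cells, cells with reticular RNA or erythroid RNA, the floor as a level, and the list medians without deep cells, were chosen after seeing the data. No paired analysis was possible because each group is 1 library and the labels give no replicate numbers. The shares were lower after thinning in all 5 libraries. Thinning removes UMIs and the rule needs at least 3 droplet UMIs, so a fall follows largely from the rule. Cells under 3000 UMIs were also left out, so thinning does not measure how far depth sets the shares.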
